A study of Mus musculus with 4 samples.

Results

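The ZIP zinc transporters described here are 10 members of the solute carrier family SLC39: Slc39a1, Slc39a3, Slc39a4, Slc39a6, Slc39a7, Slc39a8, Slc39a9, Slc39a10, Slc39a11 and Slc39a14. Each was matched by its symbol, each has a single row, and together they are 10 of the 37305 rows of the table. The family was chosen by a measured value, the lower FPKM of Slc39a10 in the DKK2 libraries of these data, so the group difference of the members is a description and no independent result. All 10 passed the filter for testing, a mean of at least 1 FPKM (fragments scaled to transcript length and library size) over the libraries, as did 12275 genes in all.

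RNA was measured in primary natural killer (NK) cells from spleens of C57BL/6 mice at postnatal day 56. All cells first spent 24 hours with recombinant murine IL-15 (50 ng/ml). The control group (2 libraries) then had mock treatment for 24 hours, and the DKK2 group (2 libraries) had DKK2, a secreted Wnt antagonist, at 200 ng/ml for 24 hours. The labels do not say whether the libraries came from separate mice or cultures, so the errors below cover library-to-library spread alone, and that spread may be technical.

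ZIP proteins move zinc into the cytosol, from outside the cell or out of organelles, and the ZnT proteins (SLC30 family) move it the other way. Free zinc in the cytosol is also held down by metallothioneins, and the transcription factor MTF-1 senses it and switches on metallothioneins and the exporter Slc30a1. Lymphocytes need zinc for signalling and division, and some ZIP proteins also carry manganese, iron or cadmium.

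Values are given in the order of replicates 1 and 2 throughout. Transcripts of all 10 NK markers examined, among them Ncr1 and Eomes, were above 0 in every library. Their summed level was 17921 and 15056 FPKM in the controls and 12272 and 11695 FPKM with DKK2, lower in both DKK2 libraries. Most of that sum is Gzmb (granzyme B), with 11543 and 9908 FPKM in the controls and 6895 and 6115 FPKM with DKK2. Prf1 (perforin) was below both controls too, with 1207 and 955 FPKM against 649 and 851 FPKM. None of the other NK markers had both DKK2 values below both controls. Of the 10 markers, 5 were highest in DKK2 replicate 1, among them Ncr1. The part of this lower NK marker sum, mostly Gzmb, in the ZIP levels was not tested. The libraries also held unequal amounts of transcripts from other cells. Markers of T cells summed to 91.1 and 191 FPKM in control replicates 1 and 2 and to 283 and 249 FPKM in DKK2 replicates 1 and 2. Cd3g alone gave 169 FPKM in DKK2 replicate 1. For 10 neutrophil markers the sums were 1.06 and 64.9 FPKM in the controls and 3523 and 126 FPKM with DKK2, and Camp, Ltf, Elane, Retnlg and Cxcr2 were listed at 0 in control replicate 1. The 8 monocyte and macrophage markers used summed to 8.2 and 198 FPKM against 650.3 and 335 FPKM, with C1qa, C1qc and Marco listed at 0 in control replicate 1. The 7 B cell markers summed to 4.53 and 146 FPKM against 196 and 307 FPKM. Most of that sum is Cd74, with 3.89 and 127 FPKM in the controls and 192 and 275 FPKM with DKK2. Each of the other B cell markers was lower in DKK2 replicate 1 than in control replicate 2. Cd79a, for example, had 0.362 FPKM against 2.62 FPKM there. Dendritic cell markers (35.8 and 14.5 against 30.8 and 25.8 FPKM) and erythroid and platelet markers (0.0664 and 9.55 against 7.53 and 15.6 FPKM) had small sums. Most of the dendritic cell sum is Itgax, with 34.0 and 10.2 FPKM in the controls and 26.3 and 21.6 FPKM with DKK2. Flt3, Siglech, Xcr1 and Clec9a were under 1 FPKM in every library. Depth was greatest in control replicate 1, and the other libraries had 0.354, 0.401 and 0.406 of its depth as read from the lowest values. In such mixed samples, fewer cells of a type and less RNA per cell cannot be told apart.

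The promoter of Slc39a10, the member with the lowest DKK2 values relative to control, is shown with that of Slc30a1, a zinc exporter whose transcript went the other way in the means. RefSeq (GRCm38.p6) gives Slc39a10 2 start sites, both on the minus strand of chromosome 1, and Slc30a1 1 on the plus strand. The 250 bases before each start are printed 5′ to 3′. The windows are chr1:46925777-46926026 and chr1:46853619-46853868 for Slc39a10 and chr1:191906531-191906780 for Slc30a1. Capitals mark matches to TTCNNNGAA, the STAT motif, or to TGCACNC and TGCGCNC, the core of the metal response element that MTF-1 binds, searched on both strands.
Slc39a10 start 1: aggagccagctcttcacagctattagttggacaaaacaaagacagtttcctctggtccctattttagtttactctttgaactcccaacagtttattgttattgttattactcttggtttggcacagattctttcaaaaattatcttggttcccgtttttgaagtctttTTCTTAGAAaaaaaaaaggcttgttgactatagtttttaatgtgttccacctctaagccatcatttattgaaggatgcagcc
Slc39a10 start 2: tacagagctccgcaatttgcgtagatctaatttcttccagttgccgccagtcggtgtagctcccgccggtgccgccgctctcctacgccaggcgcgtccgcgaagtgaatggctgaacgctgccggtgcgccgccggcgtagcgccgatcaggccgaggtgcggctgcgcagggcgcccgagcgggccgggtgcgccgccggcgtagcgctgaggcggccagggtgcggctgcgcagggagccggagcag
Slc30a1: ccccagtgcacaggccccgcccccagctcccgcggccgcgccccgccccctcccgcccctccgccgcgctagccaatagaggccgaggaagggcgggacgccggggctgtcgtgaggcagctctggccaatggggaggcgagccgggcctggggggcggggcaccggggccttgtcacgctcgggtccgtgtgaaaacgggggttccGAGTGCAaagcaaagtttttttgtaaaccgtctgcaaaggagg

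The window of the upstream Slc39a10 start was poor in G and C (35.6%) and held a palindromic STAT motif at bases -82 to -74 from the start. Such a motif stands in 7.02% of the 32851 windows of this length in the RefSeq table. The second Slc39a10 window was rich in G and C (71.6%) and held none of the motifs. The Slc30a1 window held the metal response core on its minus strand at bases -43 to -37. Of the members, 7 had a window in that table (10 windows). Slc39a4, Slc39a6 and Slc39a14 had no entry. The metal response core was in 4 of the 10 windows, those of Slc39a3, of 1 start of Slc39a8 and of both starts of Slc39a11, where 21.4% of all windows hold it. No window of the other members held the STAT motif. These matches describe letters and not bound sites, and which start the NK cells used was not tested.

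Across the 4 libraries, Slc39a7 and Slc39a6 had the highest levels of the family and together made up 46.4% to 53.9% of its summed FPKM. Slc39a7, which releases zinc from the endoplasmic reticulum and Golgi, ranged from 33.3 to 73.0 FPKM, and its range overlapped that of Slc39a6. Slc39a6, a plasma membrane carrier of the LIV-1 subfamily, ranged from 30.3 to 42.8 FPKM, above every value of the next gene in order of mean level. Then came Slc39a9, Slc39a1, Slc39a14, Slc39a4, Slc39a10, Slc39a11 and Slc39a8, with means from 18.3 down to 7.69 FPKM, and each overlapped its neighbours in range. Slc39a3 was lowest, with a mean of 2.69 FPKM and no value within the range of Slc39a8. Among the 12275 genes tested, the mean levels lay between the 14.1 percentile (Slc39a3) and the 82.5 percentile (Slc39a7). FPKM is scaled to length, so these levels can be compared between genes.

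**Figure D1:**
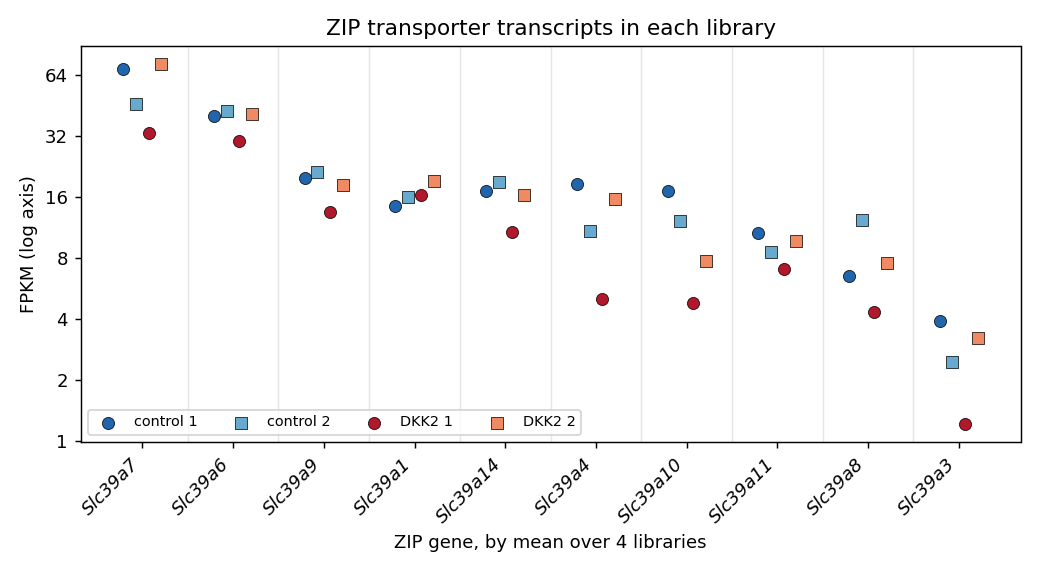
FPKM of the 10 ZIP genes (log axis) in each of the 4 libraries, with 1 point per library and genes ordered by mean level. DKK2 replicate 1 is the lowest point in 9 of the 10 genes, and Slc39a10 and Slc39a4 have wide ranges, down to 4.78 and 4.99 FPKM there.

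Slc39a10 encodes a LIV-1 subfamily importer that pairs with the Slc39a6 protein and is known for supporting B cell survival and receptor signalling. Its level was 17.2 and 12.2 FPKM in control replicates 1 and 2 and 4.78 and 7.70 FPKM in DKK2 replicates 1 and 2. Both DKK2 libraries lay below both controls, and the mean with DKK2 was 0.425 of the control mean. On the log2(FPKM + 1) scale, where changes of low genes are understated, the difference was -1.13 ± 0.34 (SE of limma's moderated fit, n = 2 and 2). Control replicate 2 minus control replicate 1 was -0.46 on that scale and DKK2 replicate 2 minus DKK2 replicate 1 was 0.59, while the smallest gap between the groups, from control replicate 2 down to DKK2 replicate 2, was -0.60. These values led to the choice of the family and are given with no test. About 575 fragments lay behind the lowest value and 5158 behind the highest, taking 5498 bases, the mean length of its annotated transcripts. Counting error (4.2% at the lowest) was thus small beside the gaps between libraries.

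Of 46 markers of other cells, 16 ranked the libraries in the exact reverse order of Slc39a10. They were 9 of 10 neutrophil, 4 of 8 monocyte and macrophage, 2 of 9 T cell and 1 of 6 dendritic cell markers. The share of all genes tested in that order was not counted, so the number has no baseline. Markers of 1 cell type are also not independent of each other. The T cell marker Cd28 ranked the libraries in the same order as Slc39a10. The other markers gave further orders, with 6 of 9 T cell and 6 of 7 B cell markers highest in DKK2 replicate 2. The T cell receptor component Cd3g, in reverse order, measured 23.1 and 87.3 FPKM in the controls and 169 and 117 FPKM with DKK2. Cd3d, Cd3e and Trac were also higher in DKK2 replicate 1 than in control replicate 2. The T cell markers Cd4, Cd5, Cd8a, Cd8b1 and Cd28 were lower there. Lyz2, the lysozyme gene of myeloid cells, had 0.889 and 142 FPKM in the controls and 552 and 209 FPKM with DKK2. The part of other cells in the Slc39a10 difference was not tested. Without control replicate 1, in which 44 of the 46 markers had their lowest value (ties included), the Slc39a10 difference was -0.90, and without DKK2 replicate 1 it was -0.83.

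**Figure D2:**
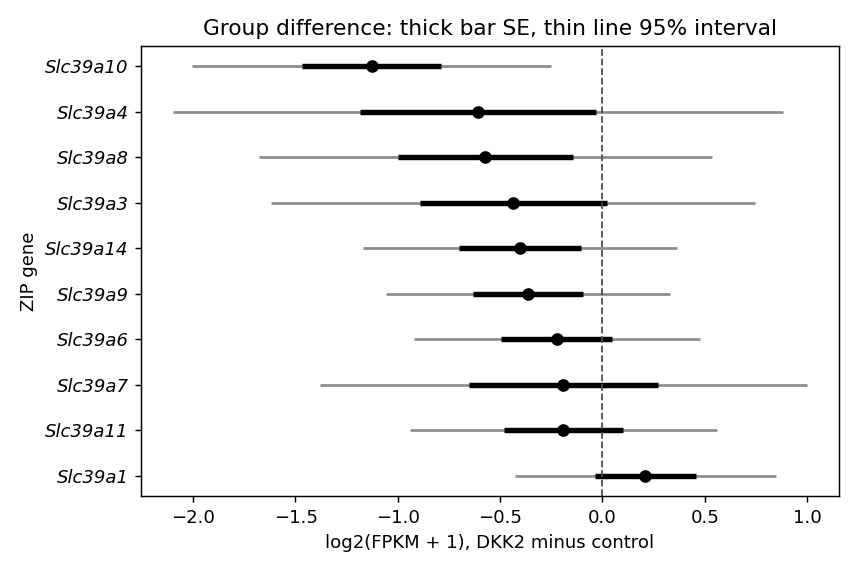
Difference in log2(FPKM + 1), DKK2 minus control, for each ZIP gene from the fit over all 12275 genes. Points are means, thick bars the SE and thin lines the unadjusted 95% interval. Slc39a10 stands at -1.13, and Slc39a1 is above 0 at 0.21. The family was chosen for the lower level of Slc39a10, so the interval of that gene is a description and no test. The intervals of the 9 other genes include 0.

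Slc39a6, the partner of Slc39a10, showed no such separation of the groups. Its level was 40.4 and 42.8 FPKM in the controls and 30.3 and 41.4 FPKM with DKK2, so DKK2 replicate 2 lay between the controls (-0.22 ± 0.27, 95% interval -0.92 to 0.48). The ratio of Slc39a6 to Slc39a10 FPKM was 2.35 and 3.51 in the controls and 6.34 and 5.38 with DKK2. Slc39a6 overlaps Elp2 on the opposite strand in the GENCODE annotation (GRCm38), and the sources used here do not say whether strand was used in the quantification. Slc39a10 itself overlaps the noncoding Gm28151 and the entry Gm37393 on the same strand. Their part in its level was not tested.

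Of the other carriers of the cell surface, Slc39a1, a widely expressed importer, was the only member with a higher mean in the DKK2 group. It was found at 14.4 and 16.1 FPKM in the controls and 16.4 and 19.2 FPKM with DKK2 (0.21 ± 0.25, 95% interval -0.43 to 0.85). The DKK2 values lay above both controls, by as little as 0.03 on the log2 scale. Its processed pseudogene Slc39a1-ps, which could share reads with it, was listed at 2.04 and 1.1 FPKM in the controls and at 0.485 and 1.45 FPKM with DKK2. With the pseudogene added to Slc39a1 the difference was 0.15 and the groups overlapped. Slc39a3, its close relative, measured 3.90 and 2.46 FPKM in the controls and 1.20 and 3.21 FPKM with DKK2, with overlapping groups (-0.44 ± 0.46). The lowest of these values rested on about 96 fragments, the fewest of any member in any library, which gives a counting error of 10.2%.

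Slc39a4, the importer of dietary zinc in the gut that is lost in the human disorder acrodermatitis enteropathica, was readily measured in these NK cell libraries. It was found at 18.6 and 10.8 FPKM in the controls and 4.99 and 15.7 FPKM with DKK2. It had the widest spread of the family, 3.73-fold from lowest to highest, and the groups overlapped (-0.61 ± 0.58). The 2 DKK2 libraries differed by 1.47 on the log2 scale, more than the groups did.

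Slc39a8 and Slc39a14 are closely related carriers that take up manganese and iron besides zinc. Slc39a8 measured 6.49 and 12.4 FPKM in the controls and 4.31 and 7.56 FPKM with DKK2, so DKK2 replicate 2 was above control replicate 1 (-0.57 ± 0.43). Slc39a14 measured 17.1 and 19.0 FPKM in the controls and 10.8 and 16.4 FPKM with DKK2 (-0.40 ± 0.30). Both DKK2 values of Slc39a14 were lower than both controls, but DKK2 replicate 2 minus control replicate 1 was only -0.05 on the log2 scale. That order was lost with quantile normalization and with upper-quartile scaling of the libraries.

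The intracellular members shared no direction in DKK2 replicate 2. Slc39a9, a Golgi protein, measured 20.0 and 21.2 FPKM in the controls and 13.5 and 18.4 FPKM with DKK2, below both controls in each DKK2 library (-0.37 ± 0.27). Slc39a9 overlaps Erh and Gm47874 on the opposite strand, and Slc39a11 overlaps Sstr2, Cog1 and Gm16487 there. Slc39a7 overlaps Gm20427 on the same strand. Slc39a8 overlaps Gm43428 and Gm43429 on the same strand and 4933401H06Rik on the opposite strand. Slc39a7 measured 68.9 and 46.2 FPKM in the controls and 33.3 and 73.0 FPKM with DKK2, so that the DKK2 group held its lowest and its highest value (-0.19 ± 0.46). Slc39a11 measured 10.7 and 8.58 FPKM in the controls and 7.04 and 9.70 FPKM with DKK2, with overlapping groups (-0.19 ± 0.29).

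None of the 9 members other than Slc39a10 passed limma with Benjamini-Hochberg adjustment over 12275 genes (adjusted p = 0.9996 in every case). Over all 10 members, 0 passed, where 0.0326% of the genes tested did (4 of 12275). At an unadjusted p under 0.05, 0 of the 9 members other than Slc39a10 were counted, beside 1.84% of the genes tested (226 of 12275). The mean was lower with DKK2 in 9 of 10 members, against 56.4% of all genes tested, and the median difference was -0.38 against -0.05 over all genes. Both DKK2 libraries were below both controls in 3 members (Slc39a9, Slc39a10 and Slc39a14), against 14.8% of genes, and above both in 1 (Slc39a1), against 11.8%. These counts come from the contrast that led to the choice of the family and are a description.

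The lower family mean rested on DKK2 replicate 1. That library held the lowest value of 9 of the 10 members, Slc39a1 being the exception, while it was the lowest library for 35.5% of all genes tested. The summed FPKM of the family was 218 and 192 in the controls, 127 in DKK2 replicate 1 and 212 in DKK2 replicate 2. Against control replicates 1 and 2, the median difference of the members was -0.58 and -0.63 for DKK2 replicate 1 but -0.08 and 0.06 for DKK2 replicate 2. All 10 members were lower in DKK2 replicate 1 than in DKK2 replicate 2, with a median gap of 0.57, where the median gap of all genes tested was 0.07. Without DKK2 replicate 1, 5 of 10 members were lower and the median difference was 0.0061, and Slc39a3 (0.03), Slc39a4 (0.13), Slc39a7 (0.36) and Slc39a11 (0.02) were then higher in the mean. DKK2 replicate 1 is also the library with the most neutrophil transcripts, 3523 FPKM over 10 markers against at most 126 in any other library. Their part in the lower ZIP levels of that library was not tested.

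**Figure D3:**
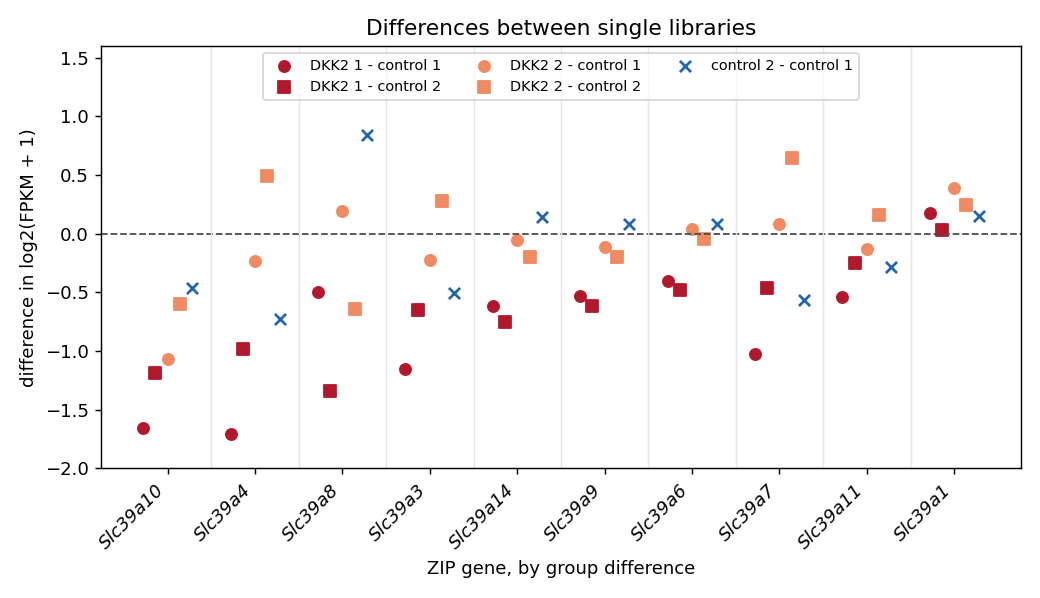
Difference in log2(FPKM + 1) between single libraries for each ZIP gene. Red points set DKK2 replicate 1 and orange points DKK2 replicate 2 against each control, and blue crosses set the controls against each other. Red points are below 0 in 9 genes, while orange points lie on both sides of 0, and Slc39a10 has all 4 DKK2 points below -0.60.

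Slc39a10 was also lowest in DKK2 replicate 1, and its gap between the DKK2 libraries, 0.59, was close to the family median. It was in addition low relative to the rest of the family in both DKK2 libraries. Its share of the summed family FPKM was 7.90% and 6.37% in the controls and 3.78% and 3.63% in DKK2 replicates 1 and 2. Relative to the mean log2(FPKM + 1) of the 9 other members in the same library, Slc39a10 stood at 0.07 and -0.31 in the controls and at -0.88 and -0.99 with DKK2. The DKK2 libraries thus differed by 0.57 in the median of the family and by little in how far Slc39a10 lay below it. These values describe the gene that led to the choice of the family.

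**Figure D4:**
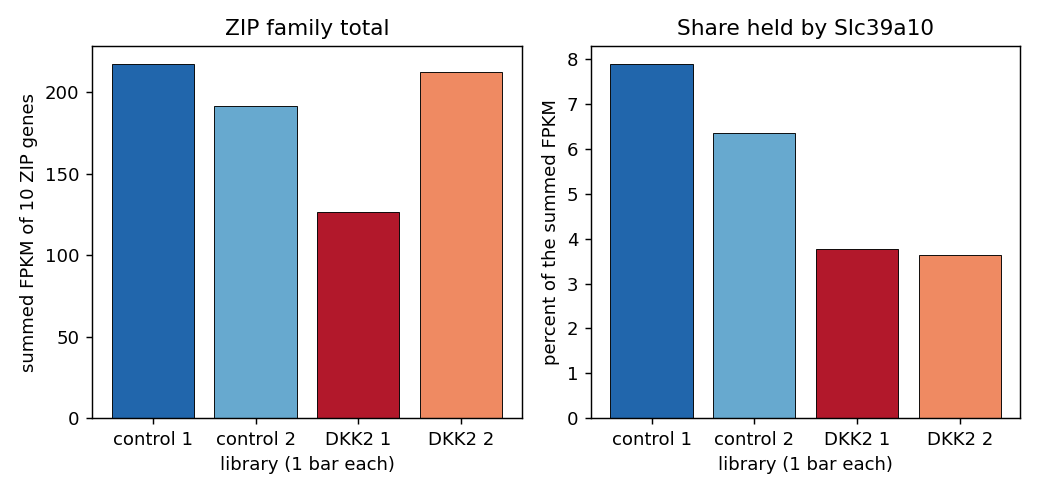
Left, the summed FPKM of the 10 ZIP genes, and right, the percent of it held by Slc39a10, with 1 bar per library. The total is low in DKK2 replicate 1 alone (127), whereas the Slc39a10 share is below 4% in each DKK2 library and above 6% in each control.

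The remaining ZIP genes were at low levels or listed at 0. Slc39a13, a carrier of the Golgi and vesicles, measured 3.59 and 2.58 FPKM in the controls and 2.19 and 3.74 FPKM with DKK2 (-0.06 ± 0.37). Slc39a2 was at most 0.358 FPKM and Slc39a12 at most 0.00139 FPKM in any library, and Slc39a5 was listed at 0 in all 4.

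Of 10 ZnT exporter genes 6 were high enough to test, 4 lower and 2 higher with DKK2, and 0 passed limma (0 at an unadjusted p under 0.05, beside 1.84% of all genes tested). Their median difference was -0.17, beside -0.05 over all genes tested, and it was 0.02 without control replicate 2. Slc30a1, the exporter of the plasma membrane, measured 1.08 and 2.45 FPKM in the controls and 3.39 and 2.62 FPKM with DKK2 (0.57 ± 0.40). Both DKK2 values were higher than both controls, the reverse of Slc39a10, and control replicate 1 stood well below the rest. Slc30a5 and Slc30a6 form a pair that loads zinc into the secretory pathway. Slc30a5 measured 39.3 and 41.1 FPKM in the controls and 43.8 and 29.6 FPKM with DKK2 (-0.15 ± 0.29). Slc30a6 measured 10.4 and 9.51 FPKM in the controls and 8.89 and 8.48 FPKM with DKK2 (-0.18 ± 0.25). The DKK2 libraries held the highest and the lowest value of Slc30a5. Only 1 of the 6 exporters was lowest in DKK2 replicate 1, and the difference from the ZIP members was not tested. That exporter was Slc30a7 of the Golgi, with 4.85 and 6.18 FPKM in the controls and 4.54 and 4.90 FPKM with DKK2. Slc30a4, which fills vesicles with zinc, measured 7.23 and 13.4 FPKM in the controls and 7.86 and 7.55 FPKM with DKK2.

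The metallothionein and sensor genes shared no direction. The metallothionein gene Mt1 measured 9.44 and 5.99 FPKM in the controls and 8.34 and 10.9 FPKM with DKK2 (0.31 ± 0.33). Mt2 measured 1.35 and 1.33 FPKM in the controls and 1.17 and 1.75 FPKM with DKK2 (0.06 ± 0.37). Mtf1, which encodes the zinc sensor MTF-1, measured 15.6 and 14.8 FPKM in the controls and 11.1 and 15.0 FPKM with DKK2 (-0.22 ± 0.27). The groups overlapped in each of these 3 genes. The median of the list, 0.06, turned to -0.05 with quantile normalization and to -0.11 without DKK2 replicate 2. Of the 3 tested of 5 listed, 0 passed limma (0 at an unadjusted p under 0.05, beside 1.84% of all genes tested).

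**Figure D5:**
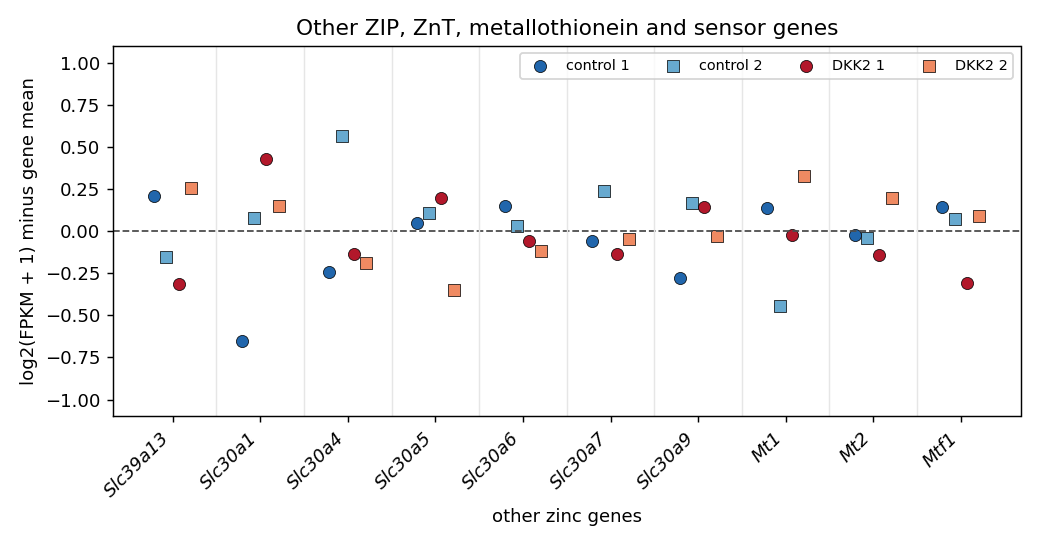
Level of the other zinc genes that could be tested, as log2(FPKM + 1) minus the gene's mean over the 4 libraries, with 1 point per library. Slc30a1 has both DKK2 points above both controls, and DKK2 replicate 1 is lowest for Slc39a13, Slc30a7, Mt2 and Mtf1.

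Genes that handle iron and manganese, which Slc39a8 and Slc39a14 also carry, were all high enough to test (11 of 11), with 6 lower, 5 higher and 0 called by limma (0 at an unadjusted p under 0.05). Of all genes tested, 56.4% were lower and 1.84% had such a p. The median difference of the list was -0.20, and it lay between -0.054 and 0.14 when any single library was left out. The transferrin receptor gene Tfrc, through which dividing cells take up iron, measured 159 and 138 FPKM in the controls and 111 and 52.4 FPKM with DKK2 (-0.95 ± 0.42). Both DKK2 values were below both controls, with DKK2 replicate 2 the lower, whereas the ZIP members were lower in DKK2 replicate 1. The iron exporter gene Slc40a1 measured 0.0159 and 2.52 FPKM in the controls and 7.02 and 3.16 FPKM with DKK2 (1.61 ± 0.72). Slc11a1, a metal carrier of phagocytes, measured 2.84 and 19.4 FPKM in the controls and 13.5 and 43.1 FPKM with DKK2 (1.51 ± 0.95). Slc40a1 and Slc11a1 were lowest in control replicate 1, as were the summed monocyte and macrophage markers, whose part in these values was not tested. Ftl1, a ferritin subunit gene, measured 484 and 297 FPKM in the controls and 110 and 419 FPKM with DKK2 (-0.82 ± 0.70), lowest in DKK2 replicate 1.

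By the root mean square difference of log2(FPKM + 1) centred on each gene's mean over the 4 libraries, the genes most like Slc39a10 among 12274 were Wdr4 (0.07), Gm13004 (0.09), Slc7a5 (0.11), Etv5 (0.11) and Gm11808 (0.11). Wdr4, a subunit of a tRNA methyltransferase, measured 24.3 and 15.2 FPKM in the controls and 6.87 and 10.8 FPKM with DKK2. Slc7a5, a transporter of large neutral amino acids, measured 61.7 and 49.1 FPKM in the controls and 23.8 and 31.3 FPKM with DKK2. Etv5, an ETS family transcription factor, measured 3.24 and 1.71 FPKM in the controls and 0.439 and 1.17 FPKM with DKK2. Chosen for this likeness, all of them were, like Slc39a10, highest in control replicate 1 and lowest in DKK2 replicate 1. With 4 libraries this likeness is a description only.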

How the data were processed

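The authors deposited 1 table of FPKM values per gene and library, per the file headers. Build mm9 and the tools TopHat2 2.1.0, Cuffdiff 2.1.0, CASAVA and edgeR stand in the submitters' processing notes, with no role stated. Annotation, strand use and multiply mapped fragments are not given in the sources used here. Each of the 4 columns of values matched a sample by name (0 left aside). Members and lists were chosen with earlier results of these data known. Named are all members, the standard zinc genes, up to 4 genes per list with the largest differences, and the 5 genes most like Slc39a10. Cd3g and Lyz2 were picked from the marker lists after their values were seen, and 1 listed marker is not reported here.

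Genes averaging 1 FPKM or more were compared as log2(FPKM + 1) with limma 3.58.1 in R 4.3.3 (trended eBayes, two-sided, Benjamini-Hochberg over 12275 genes, threshold 0.05). FPKM carries no counts, so no count model was used. The worth of 1 fragment was read from the commonest low value per length (single-transcript genes of 400 to 5000 bases in GENCODE vM21, under 0.3 FPKM): 0.0183, 0.0518, 0.0457 and 0.0451 FPKM in 1 kb for control replicates 1 and 2 and DKK2 replicates 1 and 2. Fragment numbers are estimates from it and from the mean length of a gene's transcripts in GENCODE vM21, and their error covers counting alone.

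Alternatives were another pseudocount, other filters and scalings, protein-coding genes only, summed repeated symbols, no variance trend, a replicate block and leaving out each library. The sum of Slc39a1 and its pseudogene was added after seeing the data.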

Additional observations from a re-analysis of the deposited data

How the results depend on the processing

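Slc39a10 was lower with DKK2 under all 14 alternatives, with differences of -1.42 to -0.83 when a library was left out. Both of its DKK2 values lay below both controls, so leaving out 1 library could not reverse its direction. Its values led to the choice of the family, so this is a description. No ZIP member passed limma in any of 139 refitted values, and 134 kept their direction. Many of the 134 could not do otherwise. Other filters, protein-coding genes only, summed repeated symbols, no variance trend and the replicate block left each member's difference as it was. The sum with the pseudogene changed Slc39a1 alone. The 5 refitted values that reversed came with a library left out. The differences then ranged from -0.90 to 0.031 for Slc39a3 and -1.35 to 0.13 for Slc39a4. For Slc39a7 they ranged from -0.75 to 0.36 and for Slc39a11 from -0.40 to 0.016. With a library left out, 5 to 9 members were lower, their median ranged from -0.71 to 0.0061, and 3 to 9 had all DKK2 values below all controls, fewer libraries making that easier. The median of iron and manganese genes, -0.20 over all libraries, ranged from -0.054 to 0.14, and that of metallothionein and sensor genes, 0.06, from -0.11 to 0.23. Over all genes limma called 4, against 0 without a filter (949 at an unadjusted p under 0.05), 0 among protein-coding genes (198), 0 without any single library (150 to 855) and 8 with the replicate block (383). The replicate block changed no call of a member. The replicate numbers do not pair the samples by any label, and same-numbered libraries deviated with r = 0.01 across 12275 genes. Where a group is left with 1 library, it is assumed to vary like the other. With 2 libraries per group, the spread rests on few values, and the lowest value of Slc39a3 on about 96 fragments.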
